A study of Homo sapiens with 4 samples.

Results

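The genes for the subunits of the oxidative phosphorylation machinery were read on 4 single-colour Agilent arrays of PC3 cells with or without ALKBH3 knockdown. Members were taken by name: the NDUFA, NDUFB, NDUFC, NDUFS and NDUFV genes, SDHA to SDHD, the UQCR genes, the COX4 to COX8 genes and the ATP5 genes, under current or older symbols and without pseudogenes. The rule found 90 genes with 111 probes, of 19102 genes that the array annotation could name, and 87 of the 90 were tested among 14556 genes in all. Tested members comprised 36 genes of complex I, 4 of complex II, 8 of complex III, 15 of complex IV and 18 of complex V. A further 6 tested genes match by name but encode no subunit of these complexes (EMC8, DMAC2, DMAC2L, COX7A2L, ATP5IF1 and NDUFB2-AS1), and they were kept apart as a group. The names of 8 other genes match the rule but no named probe stood for them. The subunits encoded by mitochondrial DNA lie outside the rule. So do some nuclear subunit genes whose names do not match it, such as CYC1 of complex III, which was read with the other pathway genes.

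PC3 is a human cell line from a bone metastasis of prostate cancer. Cells were infected with a lentivirus carrying an shRNA against ALKBH3, a DNA and RNA demethylase of the AlkB family, or an shRNA against GFP as control, and all 4 cultures were selected with puromycin. RNA was collected after 48 h or 96 h of selection, with 1 array for each shRNA at each time point. The control shRNA group therefore holds 1 array at 48 h and 1 at 96 h, and so does the ALKBH3 shRNA group, and the ALKBH3 hairpin used is not named in the labels. Precision is limited by there being 2 arrays a group, taken at different times, and each p-value covers only the spread between these arrays. Each slide carried the pair of arrays of 1 time point, so time and slide cannot be told apart, while the shRNAs were compared within a slide. RNA of whole cultures was measured, so fewer cells expressing a gene and less RNA per cell cannot be told apart.

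Signals are given as log2 intensities relative to the 75th percentile of each array, and differences are log2 differences between such signals. The signal of ALKBH3 was -0.74 and -0.89 with control shRNA at 48 h and 96 h, and -2.48 and -2.41 with ALKBH3 shRNA. Its log2 difference was -1.74 at 48 h and -1.51 at 96 h, so the targeted transcript was lower at both time points. All 5 epithelial markers checked (KRT8, KRT18, KRT19, EPCAM and CDH1) were above background on every array, whereas KLK3, a marker of the luminal prostate lineage, did not pass the filter on dim probes.

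Oxidative phosphorylation takes place in the inner mitochondrial membrane. Complexes I and II feed electrons from NADH and succinate into ubiquinone, complex III hands them to cytochrome c and complex IV to oxygen, and the proton gradient built on the way drives complex V, the ATP synthase. Most subunits are encoded in the nucleus and made in the cytosol, and the transcription factor NRF1 and ETS factors such as GABP are known regulators of many of their genes.

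Promoters of 6 members are shown because SDHA gave the lowest shRNA difference, because NDUFB4 carries the same motif with a difference near 0, and because NDUFA12, NDUFB3, NDUFS3 and NDUFS7 are on the study's list of strongly ALKBH3-bound promoters. Each line holds the 250 bases before the transcription start in the RefSeq promoter table of GRCh38.p14, on the strand of the gene. Capitals mark matches, on either strand, to the NRF1 motif, GCGCA and GCGC on either side of any 1 base, or to the ETS core CCGGAAG. SDHA lies at chr5:218070-218319 on the plus strand, NDUFB4 at chr3:120596086-120596335 (plus), NDUFA12 at chr12:95003698-95003947 (minus), NDUFB3 at chr2:201071751-201072000 (plus), NDUFS3 at chr11:47578824-47579073 (plus) and NDUFS7 at chr19:1383657-1383906 (plus).
SDHA: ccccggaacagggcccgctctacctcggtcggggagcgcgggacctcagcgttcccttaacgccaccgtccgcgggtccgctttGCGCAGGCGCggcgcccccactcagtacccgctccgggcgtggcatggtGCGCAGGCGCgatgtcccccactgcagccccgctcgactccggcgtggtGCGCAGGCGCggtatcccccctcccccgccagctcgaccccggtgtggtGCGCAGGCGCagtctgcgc
NDUFB4: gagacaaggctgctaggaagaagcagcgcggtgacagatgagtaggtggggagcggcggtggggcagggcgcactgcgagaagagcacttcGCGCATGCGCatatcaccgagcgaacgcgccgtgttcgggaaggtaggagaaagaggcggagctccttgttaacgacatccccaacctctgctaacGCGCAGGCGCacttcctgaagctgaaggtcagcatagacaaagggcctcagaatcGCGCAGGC
NDUFA12: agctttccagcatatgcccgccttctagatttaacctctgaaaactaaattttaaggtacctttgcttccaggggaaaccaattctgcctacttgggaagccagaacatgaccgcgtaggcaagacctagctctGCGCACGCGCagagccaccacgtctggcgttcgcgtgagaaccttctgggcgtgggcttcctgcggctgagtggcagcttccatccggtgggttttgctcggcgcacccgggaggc
NDUFB3: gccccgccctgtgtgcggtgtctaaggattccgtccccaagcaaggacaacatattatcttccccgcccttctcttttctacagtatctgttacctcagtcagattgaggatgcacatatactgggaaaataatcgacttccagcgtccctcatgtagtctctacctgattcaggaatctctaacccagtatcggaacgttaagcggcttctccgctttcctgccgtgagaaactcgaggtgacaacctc
NDUFS3: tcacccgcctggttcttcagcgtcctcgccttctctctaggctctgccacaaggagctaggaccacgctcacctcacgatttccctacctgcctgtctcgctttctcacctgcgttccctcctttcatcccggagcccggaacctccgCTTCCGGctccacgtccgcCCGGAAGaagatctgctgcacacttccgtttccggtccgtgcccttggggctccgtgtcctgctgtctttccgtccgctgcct
NDUFS7: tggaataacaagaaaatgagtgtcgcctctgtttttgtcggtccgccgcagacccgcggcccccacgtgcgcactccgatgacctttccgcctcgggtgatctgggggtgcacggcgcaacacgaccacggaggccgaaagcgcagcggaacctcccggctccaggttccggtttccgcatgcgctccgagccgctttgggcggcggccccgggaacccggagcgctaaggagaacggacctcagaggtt

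The SDHA promoter held 4 identical copies of GCGCAGGCGC, each beginning 49 bases after the one before it, with the last copy 19 bases before the start. Of all 27305 promoters in the table, 14 held 4 or more NRF1 matches. The NDUFB4 promoter held 3 matches, of which the last begins 8 bases before the start and runs past it, and NDUFA12 held 1. NDUFS3 held 2 ETS matches in opposite orientation, 19 bases apart, and NDUFB3 and NDUFS7 held neither motif. None of these promoters held both motifs.

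The same search was run over 300 bases, 250 before and 50 after the start, in the 74 member promoters that the table holds. ATP5MC3 is among the 16 members with no entry. NRF1 matches were found in 17 of the 74 member promoters (23.0%) and in 6.28% of all promoters. ETS matches were found in 21 of them (28.4%) and in 10.7% of all promoters. Base composition was not matched between members and other promoters, so these shares are a description. By complex, NRF1 matches were in 6 of 31 promoters of complex I, 2 of 3 of complex II, 4 of 7 of complex III, 1 of 14 of complex IV and 4 of 13 of complex V.

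With regard to ALKBH3 knockdown, the signals of these genes moved little. ALKBH3 shRNA was compared with control shRNA over the 4 arrays by limma, with the study's cutoffs, at least 2-fold in either direction with p below 0.05 before adjustment. Among the 87 members, 0 were past these cutoffs in either direction, where 1.04% of all genes tested were past them as higher and 0.234% as lower. An unadjusted p below 0.05 was found for 3 members (SDHA, COX6B2 and COX8C), or 3.45%, against 8.33% of all genes tested. After Benjamini-Hochberg adjustment in limma, 0 members and 0 genes in all (0% of those tested) had a p below 0.05. With the time point as a block, 4.46% of all genes tested but 0 members passed the adjusted threshold, and 5 members had an unadjusted p below 0.05 against 25.1% of all genes.

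Members were also close together. The log2 differences ran from -0.35 to 0.42 with a median of -0.02, and 83 of the 87 were smaller than 0.25 in size. Their interquartile range was 0.14, against 0.25 over all genes tested. Most members had signals above the 75th percentile of the array, and their median SE was 0.120, against 0.145 over all genes. Members and other genes were not matched for signal, here or in the comparison of time. These contrasts with all genes are therefore a description. The 95% interval of the difference lay within 2-fold in either direction for 87 of 87 members, against 86.7% of all genes, and within 1.5-fold for 82 members, against 56.3% of all genes. These intervals bound the size of a difference and do not show that it was 0. Both ALKBH3 arrays were above both control arrays for 15 members (17.2%) and below them for 17 (19.5%), next to 17.4% and 19.1% of all genes tested.

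**Figure D1:**
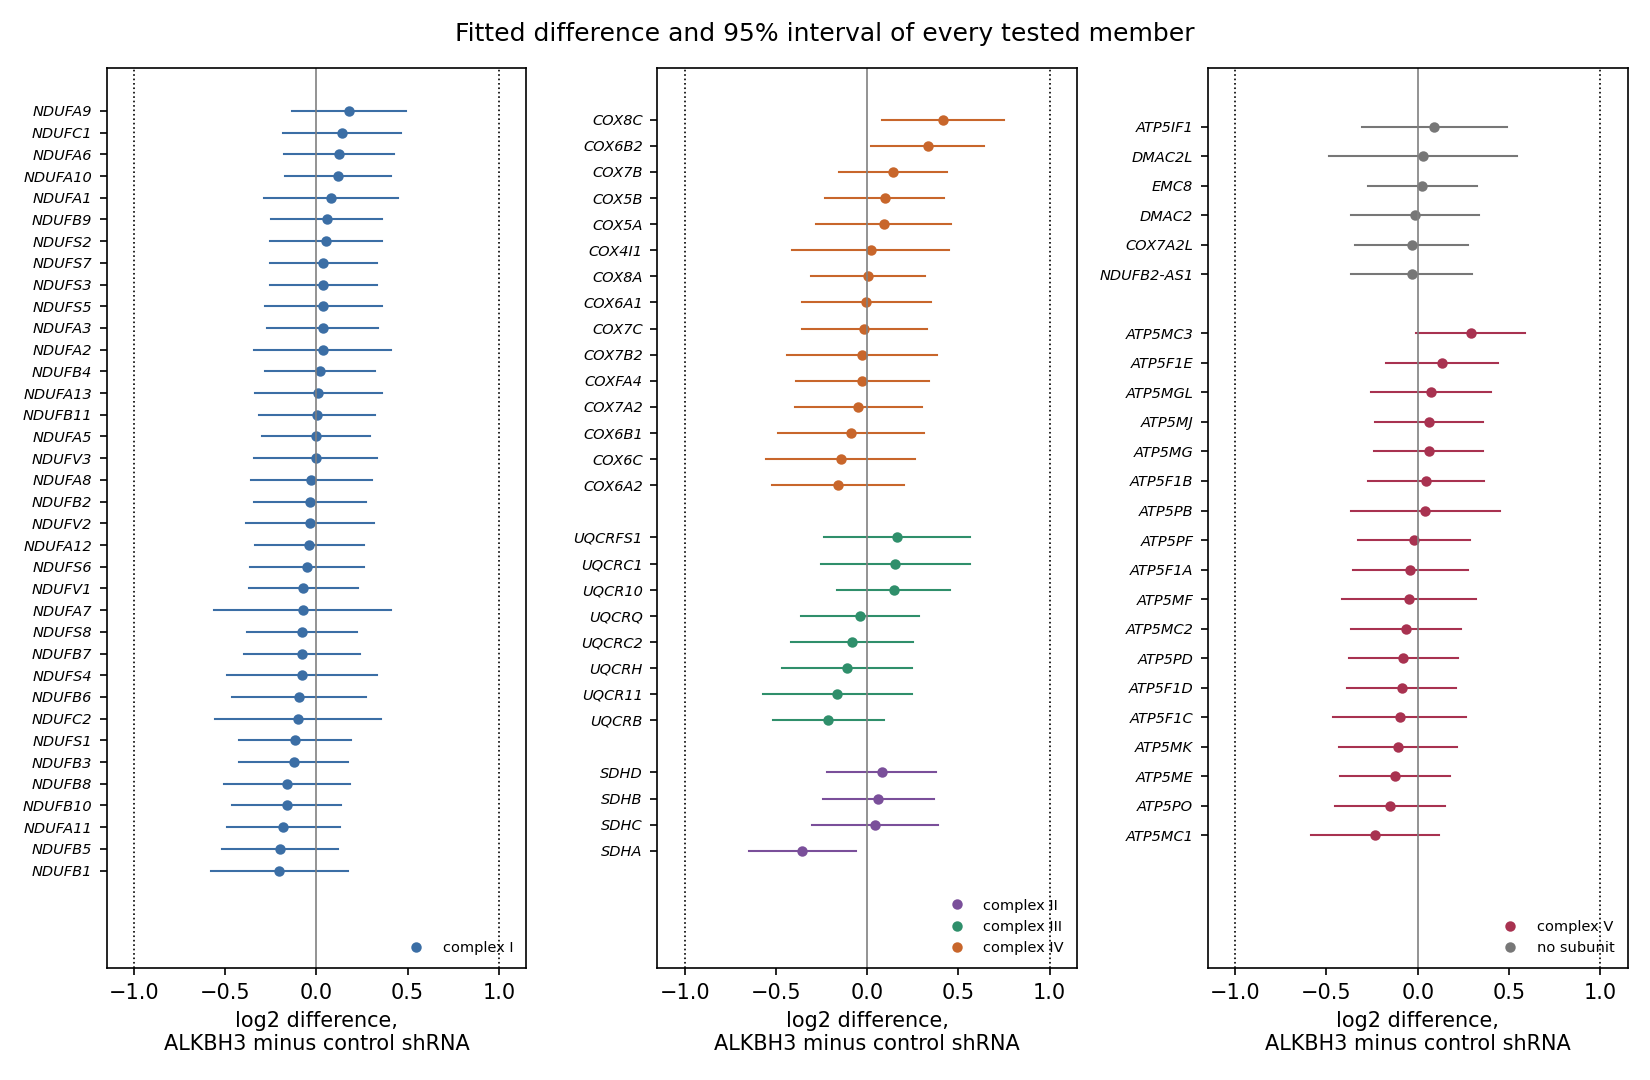
Log2 difference (ALKBH3 minus control shRNA, x axis) of each of the 87 tested members, fitted over 4 arrays by limma without a block, with its 95% interval as a line and colours for the complexes. Dotted lines stand at 2-fold in either direction. No interval reaches them, and those of SDHA, COX6B2 and COX8C lie to one side of 0.

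Each time point compares 1 array with 1 array and has no test. The log2 difference was below 0 for 58 of 87 members at 48 h (66.7%, against 51.9% of all genes tested) and for 36 members at 96 h (41.4%, against 49.1%). At both time points 30 members were lower (34.5%, against 35.6%) and 23 were higher (26.4%, against 34.6%). The signs were opposite for 34 members, of which 28 were lower at 48 h and higher at 96 h (32.2%, against 16.3% of all genes). The difference at 96 h was above that at 48 h for 65 members (74.7%, against 52.8%). Over 9 other scalings, filters and choices of probes, between 50 and 66 members were lower at 48 h and between 28 and 42 at 96 h, and the difference at 96 h was the higher one for between 51 and 67. The distance to all genes depended on the setting. At 48 h the members' share of lower genes was 57.5% against 53.7% of all genes with quantile normalization, and 57.5% against 52.8% with the authors' normalized values. The share with a higher difference at 96 h was 58.6% against 52.9% with the authors' values, and 60.9% against 55.4% with normexp and quantile normalization together. Medians were -0.06 at 48 h and 0.03 at 96 h, against -0.01 and 0.00 over all genes tested. By complex, the medians at 48 h were below 0 under all of those 9 settings for complexes I, III and V, and changed sign between settings for complex IV. The other filters on dim probes left the medians of complexes I, III and V unchanged, so only the other settings could have moved them.

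**Figure D2:**
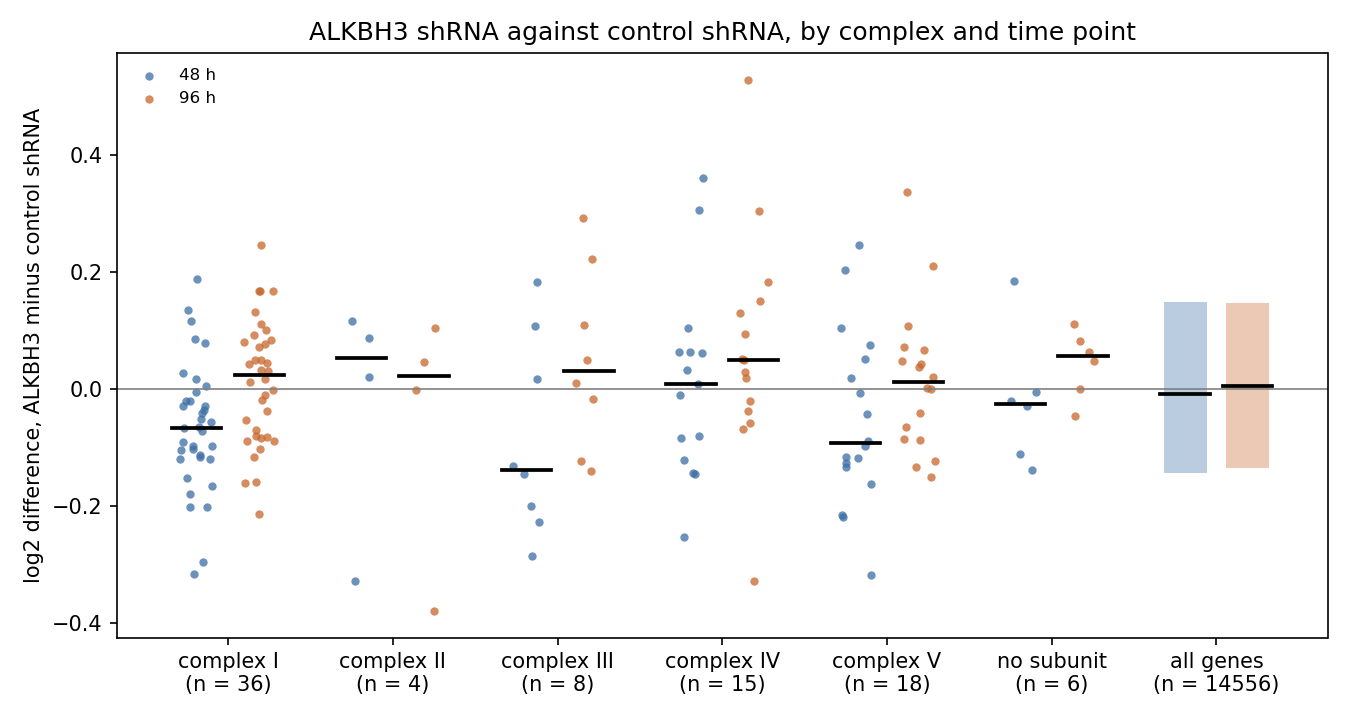
Log2 difference (ALKBH3 minus control shRNA, y axis) of every tested member at 48 h (blue) and 96 h (orange), grouped by complex, with 1 point a gene and a black bar at the median of each group. For all 14556 genes tested, the shaded boxes run from the lower to the upper quartile. Medians of complexes I, III and V lie below 0 at 48 h and just above 0 at 96 h, where that of complex V turns to -0.01 after median centring, and most points stay within 0.3 of 0.

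In complex I, the NADH dehydrogenase, 28 of 36 genes were lower at 48 h and 16 at 96 h, with medians of -0.07 and 0.02. Of all genes tested, 51.9% were lower at 48 h and 49.1% at 96 h. With quantile normalization 22 of the 36 were lower at 48 h, where 53.7% of all genes were. The log2 differences over both time points ran from -0.20 to 0.18, and 0 of the 36 had an unadjusted p below 0.05 in limma. NDUFV1 carries the flavin that takes electrons from NADH. Its signal was 4.48 and 4.45 with control shRNA at 48 h and 96 h and 4.43 and 4.36 with ALKBH3 shRNA, a difference of -0.07 ± 0.11 (SE). NDUFS1, a core iron-sulfur subunit, gave 3.29 and 3.22 with control shRNA and 3.18 and 3.1 with ALKBH3 shRNA, and was lower by the same -0.12 at both time points. For both core genes the shRNA groups did not overlap, and the differences were no larger than about their standard errors.

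The 2 lowest genes of complex I, NDUFB1 and NDUFB5, encode accessory subunits of the membrane arm. NDUFB1 gave 4.0 and 3.74 with control shRNA at 48 h and 96 h and 3.69 and 3.65 with ALKBH3 shRNA. NDUFB5 gave 3.06 and 3.0 with control shRNA and 2.76 and 2.90 with ALKBH3 shRNA. Both were lower mainly at 48 h, where the log2 differences were -0.32 for NDUFB1 and -0.30 for NDUFB5, and by -0.09 and -0.10 at 96 h. Over both time points the differences were -0.20 ± 0.14 (SE) for NDUFB1 and -0.20 ± 0.12 for NDUFB5, with limma adjusted p = 0.827 and 0.773. NDUFA9, an accessory subunit near the ubiquinone site, was the highest of the complex. Its signal was 0.85 and 0.77 with control shRNA and 1.04 and 0.94 with ALKBH3 shRNA, a difference of 0.18 ± 0.12 (SE) with a limma adjusted p of 0.809.

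Members with strongly ALKBH3-bound promoters, according to the study's list, were all of complex I. NDUFA12, an accessory subunit of the peripheral arm, gave 3.34 and 3.26 with control shRNA at 48 h and 96 h and 3.27 and 3.25 with ALKBH3 shRNA, a difference of -0.04 ± 0.11 (SE). The other NDUFA12 probe gave 0.04. NDUFB3, an accessory subunit of the distal membrane arm, gave 4.19 and 4.12 with control shRNA and 4.01 and 4.05 with ALKBH3 shRNA, a difference of -0.13 ± 0.11. NDUFS3, a core subunit of the ubiquinone module, gave 3.21 and 3.20 with control shRNA and 3.21 and 3.27 with ALKBH3 shRNA, a difference of 0.04 ± 0.11. NDUFS7, the core subunit with the last iron-sulfur cluster before ubiquinone, gave 2.26 and 2.23 with control shRNA and 2.28 and 2.27 with ALKBH3 shRNA, a difference of 0.04 ± 0.11. NDUFB3 was lower and NDUFS3 and NDUFS7 were higher at both time points, and the limma adjusted p was between 0.894 and 0.985 for the 4 genes. The 95% intervals ran from -0.34 to 0.26 for NDUFA12, from -0.43 to 0.17 for NDUFB3, from -0.26 to 0.33 for NDUFS3 and from -0.25 to 0.33 for NDUFS7.

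In complex II, succinate dehydrogenase, SDHA stood apart from the other subunit genes. SDHA encodes the flavoprotein that oxidises succinate, SDHB the iron-sulfur subunit, and SDHC and SDHD the membrane anchors. The signal of SDHA was 4.60 and 4.64 with control shRNA at 48 h and 96 h and 4.27 and 4.26 with ALKBH3 shRNA. The arrays of each shRNA were within 0.04 of each other, and both ALKBH3 arrays were below both control arrays. The log2 difference was -0.35 ± 0.11 (SE), with a 95% interval from -0.65 to -0.06, an unadjusted p of 0.0275 and an adjusted p of 0.528 in limma (0.00821 and 0.0851 with time as a block). With each of the 4 arrays left out in turn the unadjusted p was above 0.05, and with the authors' normalized values it was 0.0887.

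The 4 SDHA probes were all lower at both time points. Their log2 differences were between -0.35 and -0.18 at 48 h and between -0.38 and -0.20 at 96 h. SDHA has pseudogenes close to it in sequence, and the probe sequences were not used here to check which of these transcripts each probe can bind. SDHB gave 3.05 and 3.08 with control shRNA at 48 h and 96 h and 3.07 and 3.18 with ALKBH3 shRNA, with overlapping groups and a difference of 0.06 ± 0.12 (SE). SDHC and SDHD differed by 0.04 ± 0.13 and 0.08 ± 0.11. The other SDHC probes, of weaker signal, gave 0.12 and -0.12. NDUFB4, a complex I gene whose promoter also holds several NRF1 matches, gave 5.51 and 5.48 with control shRNA and 5.47 and 5.56 with ALKBH3 shRNA, a difference of 0.02 ± 0.11. The median log2 difference was 0.02 over the 17 tested members with an NRF1 match and -0.03 over the 56 without one.

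**Figure D3:**
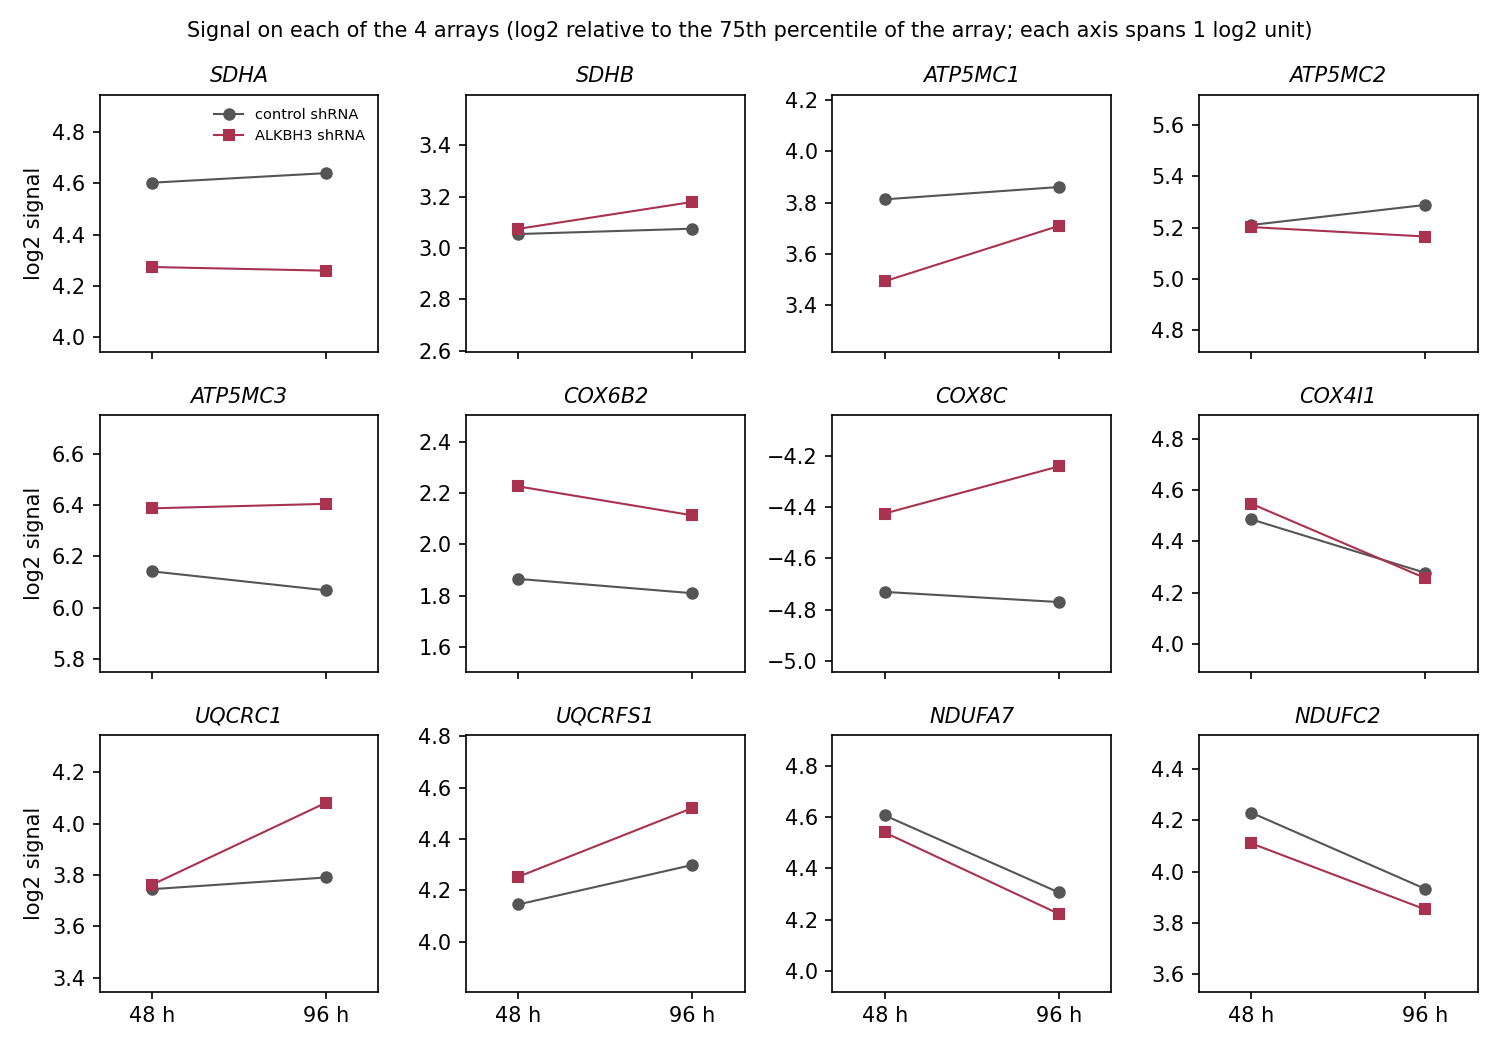
Log2 signal relative to the 75th percentile of the array (y axis, 1 log2 unit high in every panel) at 48 h and 96 h (x axis) for 12 members, with grey circles for control and red squares for ALKBH3 shRNA and 1 array a point. The 2 lines lie apart without overlap for SDHA, ATP5MC1, ATP5MC3, COX6B2 and COX8C. For ATP5MC2 they do not overlap either but almost meet at 48 h. Both lines fall from 48 h to 96 h for COX4I1, NDUFA7 and NDUFC2, and slightly for COX6B2.

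In complex III, ubiquinol-cytochrome c reductase, the genes lay on both sides of 0. At 48 h, 5 of 8 genes were lower (51.9% of all genes tested), with a median of -0.14. At 96 h, 3 of 8 were lower (49.1% of all genes), with a median of 0.03. UQCRC1 encodes a core protein of the matrix side. Its signal was 3.74 and 3.79 with control shRNA at 48 h and 96 h and 3.76 and 4.08 with ALKBH3 shRNA, so that the 96 h array with ALKBH3 shRNA was above the other 3. UQCRFS1, the Rieske iron-sulfur protein, gave 4.15 and 4.30 with control shRNA and 4.25 and 4.52 with ALKBH3 shRNA, and its groups overlapped. The log2 differences were 0.15 ± 0.15 (SE) for UQCRC1 and 0.16 ± 0.15 for UQCRFS1, with limma adjusted p = 0.904 and 0.895.

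UQCRB, a small subunit by the ubiquinone pocket, was the lowest of complex III. Its signal was 4.52 and 4.45 with control shRNA at 48 h and 96 h and 4.23 and 4.31 with ALKBH3 shRNA, a difference of -0.21 ± 0.11 (SE). The shRNA groups did not overlap. The other UQCRB probe, of weaker signal, gave the opposite sign, with log2 differences of 0.29 at 48 h and 0.13 at 96 h. The direction for this gene thus turned with the probe.

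**Figure D4:**
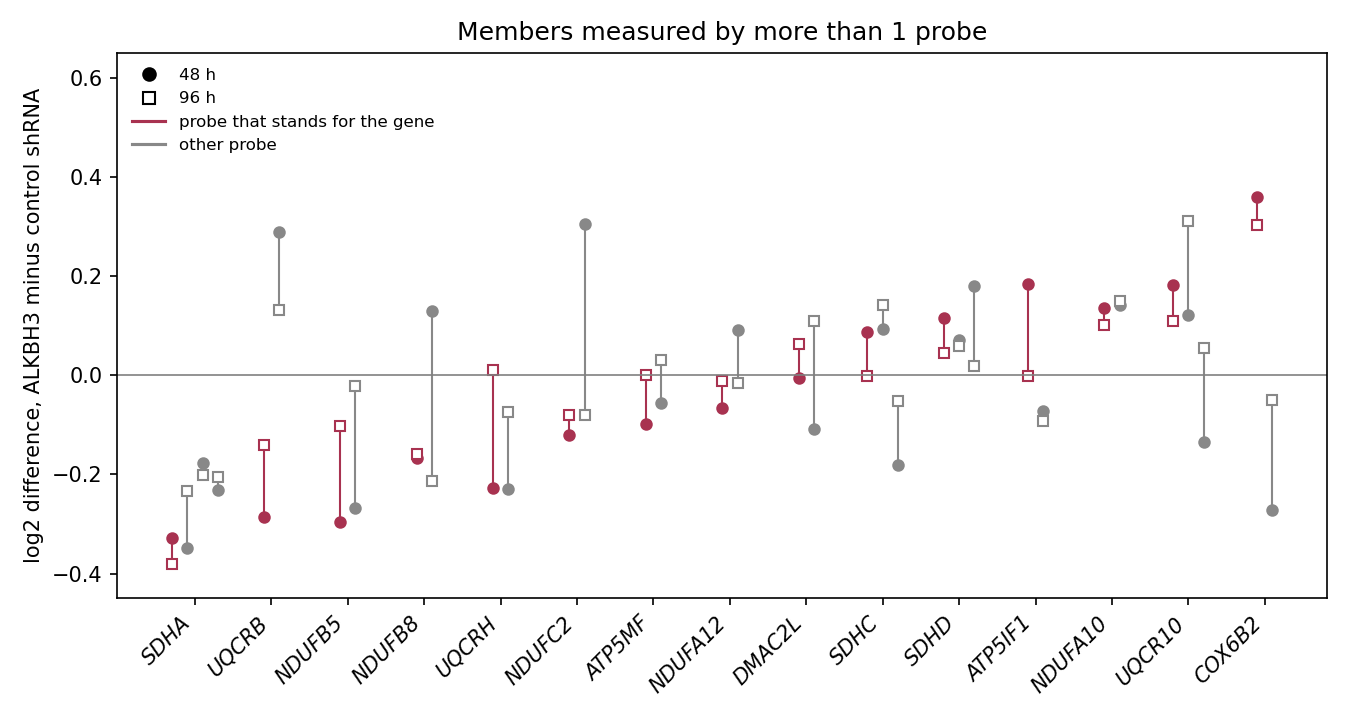
Log2 difference (ALKBH3 minus control shRNA, y axis) at 48 h (filled circles) and 96 h (open squares) for every kept probe of the 15 members with more than 1 probe, ordered by the probe that stands for the gene (red), with other probes in grey. All 4 SDHA probes lie below 0, and the probes of UQCRB and of COX6B2 lie on opposite sides of 0. Over both time points together, 7 of the 15 members had probes of opposite sign. That share was not computed over all genes with more than 1 probe, so it is a description.

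In complex IV, cytochrome c oxidase, the 3 differences of greatest size, those of COX8C, COX6B2 and COX6A2, belonged to isoform genes of restricted tissues. COX8C and COX6A2 were the dimmest members tested, with signals between -5.01 and -4.24, and the direction for COX6B2 turned with the probe. COX4I1 encodes the general isoform of subunit 4. Its signal was 4.49 and 4.28 with control shRNA at 48 h and 96 h and 4.55 and 4.26 with ALKBH3 shRNA, a difference of 0.02 ± 0.16 (SE). COX5B, a zinc-binding subunit, gave 4.24 and 4.10 with control shRNA and 4.31 and 4.23 with ALKBH3 shRNA, a difference of 0.10 ± 0.12. COXFA4, formerly NDUFA4 and first placed in complex I, gave 5.83 and 5.61 with control shRNA and 5.75 and 5.64 with ALKBH3 shRNA, a difference of -0.03 ± 0.14.

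COX6B2, the testis isoform of subunit 6B, gave 1.87 and 1.81 with control shRNA at 48 h and 96 h and 2.23 and 2.11 with ALKBH3 shRNA. Both ALKBH3 arrays were above both control arrays. The log2 difference was 0.33 ± 0.12 (SE), with an unadjusted p of 0.0413 and an adjusted p of 0.577 in limma (0.0105 and 0.094 with time as a block). The other COX6B2 probe, with signals between -4.99 and -4.43, had a log2 difference of -0.16, and the mean over both probes was 0.09.

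COX8C, the testis isoform of subunit 8, gave -4.73 and -4.77 with control shRNA at 48 h and 96 h and -4.43 and -4.24 with ALKBH3 shRNA. The log2 difference was 0.42 ± 0.13 (SE), the highest of the members, with an unadjusted p of 0.025 and an adjusted p of 0.514 in limma (0.00907 and 0.0877 with time as a block). It was 0.15 with normexp background correction, where the unadjusted p was 0.314. COX6A2, the muscle isoform of subunit 6A, gave -4.88 and -4.68 with control shRNA and -4.87 and -5.01 with ALKBH3 shRNA, a difference of -0.16 ± 0.14. COX7B2, the testis isoform of subunit 7B, gave -0.59 and -0.91 with control shRNA and -0.74 and -0.82 with ALKBH3 shRNA, a difference of -0.03 ± 0.15. The groups overlapped for COX7B2 and COX6A2. COX4I2, COX7A1 and COXFA4L2 (formerly NDUFA4L2) were well above background on 2, 1 and 0 arrays, did not pass the filter and were not tested.

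In complex V, the ATP synthase, 12 of 18 genes were lower at 48 h and 8 at 96 h, with medians of -0.09 and 0.01. The shares of all genes tested were 51.9% and 49.1%. ATP5F1A and ATP5F1B encode the alpha and the catalytic beta subunit. ATP5F1A gave 4.74 and 4.72 with control shRNA at 48 h and 96 h and 4.62 and 4.76 with ALKBH3 shRNA, a difference of -0.04 ± 0.12 (SE). ATP5F1B gave 4.30 and 4.43 with control shRNA and 4.38 and 4.45 with ALKBH3 shRNA, a difference of 0.05 ± 0.12. The groups overlapped for both genes.

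ATP5MC1, ATP5MC2 and ATP5MC3 encode the same mature subunit c, which forms the proton-driven ring, behind different import sequences. The signal of ATP5MC1 was 3.81 and 3.86 with control shRNA at 48 h and 96 h and 3.49 and 3.71 with ALKBH3 shRNA. ATP5MC2 gave 5.21 and 5.29 with control shRNA and 5.20 and 5.17 with ALKBH3 shRNA. ATP5MC3 gave 6.14 and 6.07 with control shRNA and 6.39 and 6.40 with ALKBH3 shRNA. Both ALKBH3 arrays were thus below both control arrays for ATP5MC1 and ATP5MC2 and above them for ATP5MC3. The log2 differences were -0.24 ± 0.13 (SE) for ATP5MC1, -0.07 ± 0.11 for ATP5MC2 and 0.29 ± 0.11 for ATP5MC3, with limma adjusted p = 0.751, 0.961 and 0.607. The sign for ATP5MC2 turned to 0.13 with normexp background correction and to 0.17 with the authors' normalized values. Over 16 alternatives ATP5MC1 lay between -0.34 and -0.13 and ATP5MC3 between 0.25 and 0.33. Several of these, such as the block, the t-test and the filters, cannot change the difference of a gene with a single probe. The difference between the genes was not tested. With time as a block the unadjusted limma p was 0.0475 for ATP5MC1 and 0.0183 for ATP5MC3, and the adjusted p 0.194 and 0.122.

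The remaining complex V genes ran from -0.15 for ATP5PO, which links the stator stalk to the catalytic head, to 0.13 for ATP5F1E, the epsilon subunit of the central stalk. The 6 genes that encode no subunit ran from -0.03 to 0.09. ATP5IF1, the inhibitor of the ATP synthase, gave 4.90 and 4.79 with control shRNA at 48 h and 96 h and 5.08 and 4.79 with ALKBH3 shRNA, a difference of 0.09 ± 0.15 (SE). Its other probe gave -0.08.

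Other genes of the pathway were read from a list of 61 assembly factors, electron carriers and regulators, of which 59 were tested. At the study's cutoffs 1 was higher (1.69%, against 1.04% of all genes tested) and 0 were lower. An unadjusted p below 0.05 was found for 4 of them, or 6.78% against 8.33% of all genes (COXFA4L3, NDUFAF3, UQCC3 and ATPAF1, of which ATPAF1 was named after its value was seen). With time as a block, COXFA4L3 and NDUFAF3 passed the adjusted threshold in limma (3.39%, against 4.46% of all genes). The median log2 difference of the 59 was 0.00. CYC1, the cytochrome c1 gene of complex III, gave 4.10 and 4.20 with control shRNA at 48 h and 96 h. With ALKBH3 shRNA it gave 4.31 and 4.33, a difference of 0.17 ± 0.11 (SE) with a limma adjusted p of 0.814.

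COXFA4L3, formerly C15orf48, encodes an inducible protein that can take the place of COXFA4 in complex IV, and the rule for members leaves it out. Its signal was -2.82 and -3.16 with control shRNA at 48 h and 96 h and -0.64 and -0.99 with ALKBH3 shRNA, so that both ALKBH3 arrays were above both control arrays. The log2 difference was 2.17 ± 0.20 (SE), with a limma adjusted p of 0.253 (0.0209 with time as a block). NDUFAF3, an assembly factor of complex I, gave 5.13 and 5.02 with control shRNA and 4.44 and 4.40 with ALKBH3 shRNA. The log2 difference was -0.66 ± 0.12, with a limma adjusted p of 0.348 (0.0366 with time as a block). It is larger in size than that of any complex I member, although this contrast between genes was not tested.

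TTC19 and UQCC3 serve the assembly of complex III. TTC19 gave 2.91 and 2.55 with control shRNA at 48 h and 96 h and 2.48 and 1.84 with ALKBH3 shRNA, a difference of -0.58 ± 0.27 (SE). UQCC3 gave 3.94 and 3.97 with control shRNA and 3.30 and 3.60 with ALKBH3 shRNA, a difference of -0.50 ± 0.15. Both were lower at both time points, with limma adjusted p = 0.687 and 0.505. NDUFAF5, a complex I assembly factor, and SCO1, a copper chaperone of complex IV, were the highest apart from COXFA4L3, with log2 differences of 0.22 and 0.23. The 10 tested regulators, which include NRF1, GABPA, ESRRA and TFAM, ran from -0.17 to 0.10, and 0 of them had an unadjusted p below 0.05. Coactivator PPARGC1A was not tested.

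The second comparison was that of 96 h with 48 h of selection, in which slide and time cannot be told apart. Among the 87 members 0 were past the cutoffs, where 0.124% of all genes tested were past them as higher and 0.66% as lower. An unadjusted p below 0.05 was found for 4 members (4.6%, against 18.4% of all genes), all of them lower at 96 h. With the shRNA as a block 7 members (8.05%) and 35% of all genes had such a p. In limma 0 members passed the adjusted threshold, also with that block, where 12.8% of all genes did. The 95% interval lay within 2-fold for 87 of 87 members (87.1% of all genes) and within 1.5-fold for 86 (58.9%). Both 96 h arrays were below both 48 h arrays for 29 members (33.3%, against 26% of all genes) and above them for 11 (12.6%, against 26.6%). The median log2 difference was -0.04, with a range from -0.34 to 0.21. Its sign depended on the scaling, since it was 0.01 after centring on the median of the array.

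The signal was lower at 96 h for 66 of 87 members with control shRNA (75.9%, against 52.5% of all genes tested) and for 49 with ALKBH3 shRNA (56.3%, against 49.6%). With both shRNAs 42 members were lower (48.3%, against 39.2%) and 14 were higher (16.1%, against 37%). Over the 9 other scalings, filters and choices of probes, the count with control shRNA was between 52 and 67 and that with ALKBH3 shRNA between 30 and 51. With the authors' normalized values the shares were 59.8% against 50.7% of all genes with control shRNA and 54.0% against 50.8% with ALKBH3 shRNA. After median centring the share with ALKBH3 shRNA was 34.5%, below the 40.7% of all genes. The comparisons of time and of shRNA share the same 4 arrays. Complex IV was lowest at 96 h, with a median of -0.14 with control and -0.08 with ALKBH3 shRNA, and 10 of its 15 genes were lower with both. Its medians stayed below 0 under the 9 other settings, but complex II was lower than complex IV under some of them. With control shRNA and the authors' values the medians were -0.083 for complex II and -0.074 for complex IV. With ALKBH3 shRNA after quantile normalization they were -0.081 and -0.049.

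**Figure D5:**
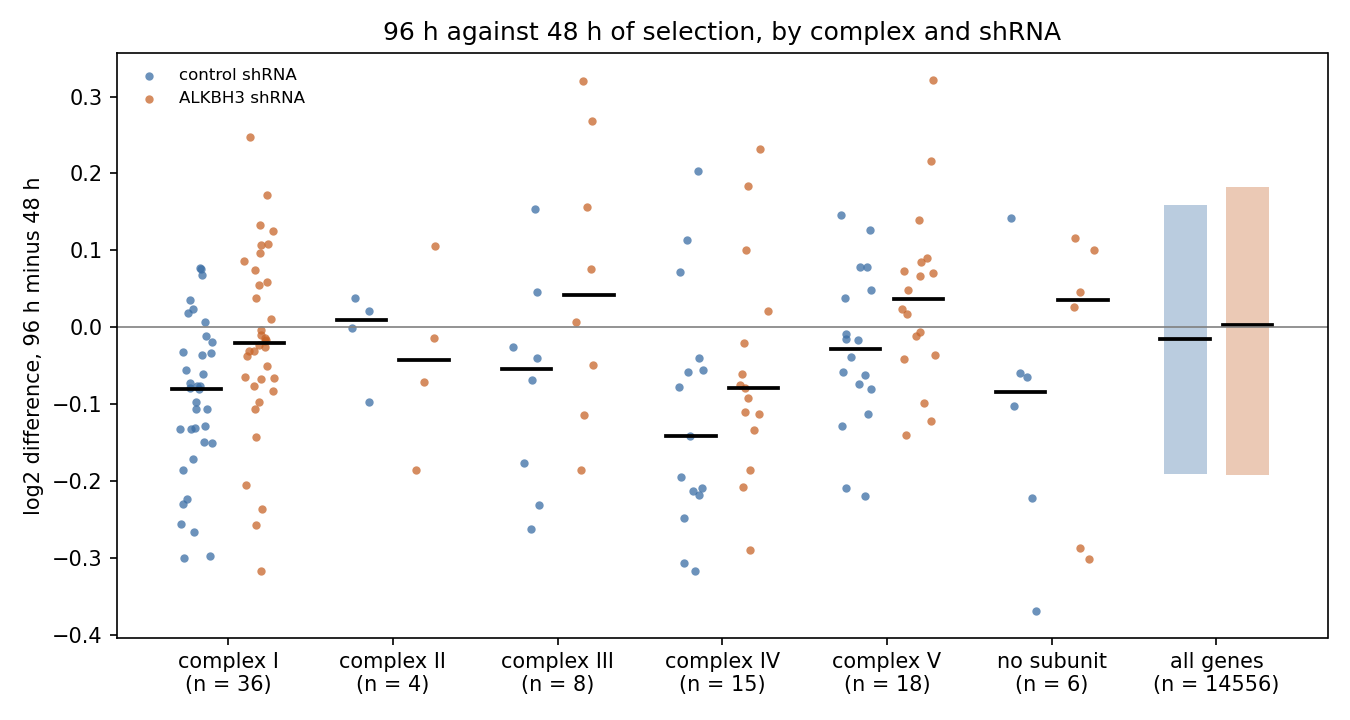
Log2 difference (96 h minus 48 h, y axis) of every tested member with control shRNA (blue) and with ALKBH3 shRNA (orange), grouped by complex, with 1 point a gene and a black bar at the median of each group. The shaded boxes run from the lower to the upper quartile of all 14556 genes tested. Medians of complexes I and IV lie below 0 with both shRNAs, although that of complex I with ALKBH3 shRNA turns to 0.07 with normexp background correction.

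The 4 genes with an unadjusted p below 0.05 were DMAC2L, NDUFA7, NDUFC2 and COX4I1. For each of them both 96 h arrays were below both 48 h arrays. DMAC2L, a factor that couples the parts of the ATP synthase, gave -0.18 with either shRNA at 48 h, and at 96 h -0.54 with control and -0.48 with ALKBH3 shRNA, a difference of -0.34 ± 0.09 (SE). NDUFA7, an accessory subunit of the peripheral arm, had signals of 4.61 and 4.54 on the 48 h arrays, control first, and of 4.31 and 4.22 on the 96 h arrays, a difference of -0.31 ± 0.09. NDUFC2, of the membrane arm, gave 4.23 and 4.11 at 48 h and 3.93 and 3.85 at 96 h, a difference of -0.28 ± 0.10. COX4I1, with the signals given above, was lower by -0.25 ± 0.09. The limma adjusted p was between 0.194 and 0.261 for these genes.

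NDUFS4, an accessory subunit of the NADH module, gave 2.76 and 2.66 at 48 h and 2.51 and 2.45 at 96 h, a difference of -0.23 ± 0.09 (SE). At the other end, UQCRFS1 differed by 0.21 ± 0.12, UQCRC1 by 0.18 ± 0.13, COX5A by 0.17 ± 0.10, NDUFB6 by 0.14 ± 0.11 and ATP5MC1 by 0.13 ± 0.15. For COX5A, a subunit of the matrix side, the signal was 3.18 and 3.21 at 48 h and 3.29 and 3.44 at 96 h. NDUFB6, of the distal membrane arm, gave 2.96 and 2.76 at 48 h and 3.0 and 3.01 at 96 h. All 5 were higher at 96 h with each shRNA, and their limma adjusted p was between 0.415 and 0.667. Of the 59 other pathway genes, 8 were higher and 1 was lower at an unadjusted p below 0.05, together 15.3% against 18.4% of all genes tested.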

How the data were processed

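RNA from PC3 cells with ALKBH3 or control (GFP) shRNA was hybridised to 4 single-colour Agilent arrays. The authors deposited spot intensities from Agilent Feature Extraction (version 10.7.3.1 in the file headers), background-subtracted on each array with no normalization between arrays, and a table of log2 values normalized between arrays with limma, used here as an alternative. Non-control spots numbered 43118 an array, at 75th-percentile intensities between 2150 and 2394. Spots marked as non-uniform or outliers (180 to 379 an array) were removed, and 0 were saturated. Intensities were converted to log2 minus the 75th percentile of the array and averaged over the spots of each probe. Probes were kept if at least 0.5 of their spots were well above background on both arrays of 1 shRNA, and the brightest kept probe stood for a gene. Probes were named through their accessions in the RefSeq gene list of GRCh38.p14 (24910 of 34127 probes), since the spot tables hold no gene name. ATP5IF1, ATP5MK and ATP5MJ were first placed among other chain parts but match the rule by current symbol and were counted as members. A further lineage marker is not reported here.

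Differences were fitted over all 14556 genes with lmFit and eBayes of limma 3.58.1 in R 4.3.3 (package data.table, version 1.17.8), without a block, with Benjamini-Hochberg adjustment over all genes. The steps were tested on simulated arrays with independent noise, no effect of time or slide, and planted changes larger than any member difference. That test therefore does not cover small differences or correlated arrays. Arrays of the same time point share a label and a slide, and their deviations from the shRNA means had a correlation of 0.703 over 14556 genes and 0.587 over the members. Promoters were searched with Python 3.11.15 (pandas 2.3.3), a gene with several starts standing by its first entry, and figures were drawn with matplotlib 3.10.9. Members, pathway lists and tests were chosen with earlier results of these data known. Members named are core and proton ring genes, tissue-restricted isoforms, the members on the study's list of strongly bound promoters, and the 5 highest and 5 lowest of each comparison with the same sign in both pairs of arrays, and from the pathway lists the 3 highest and the 3 lowest. NDUFB4, CYC1, ATP5PO, ATP5F1E and ATP5IF1 were named after their values were seen. Alternatives were other scalings, normexp background correction (offset 50), the authors' table, other filters and probe rules, the methods' t-test, a block, each array left out and a 1.5-fold cutoff. ChIP-seq data are not analysed here.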

Additional observations from a re-analysis of the deposited data

Results flagged for a closer look

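Some log2 differences between ALKBH3 and control shRNA had opposite signs at 48 h and 96 h, each from 1 array against 1 array, and these changes between the time points were not tested. The median of all tested members moved by 0.0861 (from -0.06 to 0.03), that of complex I by 0.0897 (from -0.07 to 0.02), that of complex III by 0.17 (from -0.14 to 0.03) and that of complex V by 0.10 (from -0.09 to 0.01). Among the genes named, NDUFB6 moved by 0.21 (from -0.20 to 0.01), COX7B2 by 0.24 (from -0.15 to 0.09), ATP5F1A by 0.16 (from -0.12 to 0.04) and DMAC2L by 0.0671 (from -0.00479 to 0.06). COX4I1 moved by -0.0813 (from 0.06 to -0.02) and COX6A2 by -0.34 (from 0.01 to -0.33).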

How the results depend on the processing

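The number of members past the cutoffs was 0 in both comparisons under every alternative run, with each array left out in turn as well, and 0 members passed the adjusted threshold in limma. The median log2 difference of the members between the shRNAs was between -0.05 and 0.04 with an array left out (0.0406 without the control array at 48 h, -0.0492 without the control array at 96 h), so its sign depended on 1 array, and between -0.05 and 0.01 otherwise. The median between 96 h and 48 h was 0.0122 after median centring, against -0.04, and between -0.06 and -0.02 with an array left out. Median centring moved the median of all genes from -0.01 to 0.05 in that comparison. With the replicate block (time point, or shRNA in the comparison of time), the medians stayed at -0.02 and -0.04, and the members with an unadjusted p below 0.05 went from 3 to 5 and from 4 to 7, while the genes past the adjusted threshold over all went from 0 to 649 and from 0 to 1860. At a 1.5-fold cutoff 415 genes were higher and 187 lower with ALKBH3 shRNA, against 151 and 34, with 0 members among them. The methods' t-test gave an unadjusted p below 0.05 for 6 members between the shRNAs and 7 between the time points, and called 45 genes higher and 15 lower, of which 0 had an adjusted p below 0.05. Among the named members, 53 single alternatives moved the unadjusted p above 0.05 and 14 moved it below, and 0 turned the sign of a difference past that threshold. The mean over both probes took COX6B2 from 0.33 to 0.09. With 2 arrays a group, differences of the size seen for most members could not be told from the spread.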
